A study of Mus musculus with 6 samples.

Results

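MHC class I molecules show fragments of a cell's own proteins at its surface, and the 10 genes described here encode the parts of that route: the heavy chains H2-K1 and H2-D1, their light chain B2m, the peptide transporter subunits Tap1 and Tap2, the loading factor Tapbp, the immunoproteasome subunits Psmb8, Psmb9 and Psmb10, and the transcriptional regulator Nlrc5. They were chosen by name from a table of 52636 mouse genes, and all 10 passed the filter on low counts that left 32496 genes to be tested. The libraries were made from thymic epithelial cells (TEC) sorted from the thymus of wild-type C57BL/6 mice at 6 weeks of age, with 3 libraries of tuft-like and 3 of non-tuft-like medullary TEC (mTEC). Both populations bound the lectin UEA, were low for surface MHC class II and lacked CD80, Sca1 and CD63, and no treatment or engineered allele is named for either. Tuft-like cells carried CD117 and CD66a, whereas non-tuft-like cells carried neither. The sort therefore compares cells within the mTEC of low MHC class II, and the non-tuft-like gate is defined by the absence of markers rather than by a lineage. The labels do not say whether the 3 libraries of a population came from separate animals, so the p-values measure the spread between libraries, which may be technical.

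Cytosolic proteins are cut by the proteasome, and in cells exposed to interferon-gamma the catalytic subunits Psmb5, Psmb6 and Psmb7 are exchanged for Psmb8, Psmb9 and Psmb10, which changes where proteins are cut. The transporter TAP carries the peptides into the endoplasmic reticulum, where tapasin (Tapbp) holds an empty heavy chain and B2m beside it until a peptide binds. Nlrc5 is a transactivator that acts with DNA-bound factors at the promoters of class I genes, as Ciita does for class II. In the thymus, peptides on class I are what developing CD8 T cells are selected on, in the cortex for usefulness and in the medulla for tolerance.

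The libraries held 20097617 to 48369825 gene counts each, and the lowest count of any of the 10 genes in any library was 1446. These are reads without molecular identifiers, so the number of RNA molecules behind them is not known. Reads assigned to no gene made up 34.4% to 52.5% of all reads in the non-tuft-like and 19.7% to 61.6% in the tuft-like libraries, with the highest share in tuft-like replicate 1 and the lowest in tuft-like replicate 3. All 15 tuft cell markers examined were called higher in the tuft-like libraries by edgeR's quasi-likelihood test, which called 1.16% of all tested genes higher. It called 7 of 10 mature mTEC markers lower, where it called 0.951% of all tested genes lower. The count of mature mTEC markers called went to 4 without non-tuft-like replicate 1, non-tuft-like replicate 2 or tuft-like replicate 2. Levels are given as CPM, the counts of a library brought to the same total as the others after TMM scaling, or, where genes are compared with each other, as TPM, in which counts are first divided by exon length.

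The promoters are shown because the class I genes are known as a co-regulated set. The levels of most of these genes moved together over the libraries, but this was not particular to them. H2-D1 and Nlrc5 followed the mean profile of all 10, themselves included, least closely (Pearson's r of 0.598 and 0.642). Genes outside the set followed it as closely as any of the 10, with Pearson's r of up to 0.998 (Cyba). Of the 10 genes, 8 had a promoter window in the RefSeq table for GRCm38 (the same assembly as mm10), each spanning 250 bases before to 50 bases after a transcription start, and the start used was the first of 2 for H2-K1. Capitals mark matches, on either strand, of the CCAAT box (CCAAT), the TGACG site bound by CREB and ATF factors, the core of the interferon-stimulated response element (ISRE, a pair of GAAA repeats set apart by 2 bases), and a shorter spacing (GAANNGAAA) that was added after the windows had been read. The lines give H2-K1 (chr17:34000298-34000597, minus strand), H2-D1 (chr17:35262844-35263143, plus strand), B2m (chr2:122147437-122147736, plus strand) and Tap1 (chr17:34187306-34187605, plus strand), 5′ to 3′.
H2-K1: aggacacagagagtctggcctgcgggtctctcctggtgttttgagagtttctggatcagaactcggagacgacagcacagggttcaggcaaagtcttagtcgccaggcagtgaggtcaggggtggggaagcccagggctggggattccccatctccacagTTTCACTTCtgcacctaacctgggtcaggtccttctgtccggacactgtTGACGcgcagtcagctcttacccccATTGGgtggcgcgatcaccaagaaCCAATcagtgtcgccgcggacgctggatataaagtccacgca
H2-D1: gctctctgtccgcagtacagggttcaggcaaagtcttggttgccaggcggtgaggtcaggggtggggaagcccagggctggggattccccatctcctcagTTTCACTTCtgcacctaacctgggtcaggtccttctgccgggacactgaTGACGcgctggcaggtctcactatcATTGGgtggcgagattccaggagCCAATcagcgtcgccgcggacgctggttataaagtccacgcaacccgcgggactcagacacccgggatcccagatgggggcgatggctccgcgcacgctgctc
B2m: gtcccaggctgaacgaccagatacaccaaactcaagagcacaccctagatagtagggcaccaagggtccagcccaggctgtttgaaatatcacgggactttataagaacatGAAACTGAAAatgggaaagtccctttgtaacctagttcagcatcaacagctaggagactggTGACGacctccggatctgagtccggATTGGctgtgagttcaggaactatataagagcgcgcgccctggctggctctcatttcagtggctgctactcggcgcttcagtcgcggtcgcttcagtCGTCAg
Tap1: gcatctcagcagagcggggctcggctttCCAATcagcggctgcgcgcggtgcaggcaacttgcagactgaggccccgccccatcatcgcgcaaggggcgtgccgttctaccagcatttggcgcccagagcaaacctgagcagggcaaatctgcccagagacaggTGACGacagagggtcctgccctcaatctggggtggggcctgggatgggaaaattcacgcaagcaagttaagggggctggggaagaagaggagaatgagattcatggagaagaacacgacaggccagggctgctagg

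The H2-K1 and H2-D1 windows aligned over 228 columns, of which 206 (90.4%) were identical, with a longest identical run of 47 bases. Both held 1 match of TGACG, 2 of CCAAT and 1 of the shorter spacing, which occur in 20.8%, 37.4% and 7.52% of the 32851 promoter windows searched. B2m held the ISRE core, found in 3.44% of windows, with 2 matches of TGACG and 1 of CCAAT. Tap1 and Psmb9 are transcribed away from each other and their windows share 275 bases, with 1 match each of TGACG and CCAAT. The fourth motif searched, TTCNNNGAA (the gamma-activated site), was found among these genes in Psmb8 alone and occurs in 8.30% of windows. Tapbp held 2 matches of CCAAT, and the Psmb10 window held none of the motifs. A match of these letters is a description of the window and not a bound site.

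Of the 10 genes, 9 had a log2 fold change under 0, that is, a lower fitted level in tuft-like than in non-tuft-like mTEC, and H2-D1 was the exception. Their median log2 fold change was -0.43, against 0.02 over all tested genes. A single gene, Nlrc5, was called lower by edgeR's quasi-likelihood test (1 of 10), where 0.951% of all tested genes, and 4.32% of those with at least 50 CPM in the higher population, were called lower. For 8 of the 10 genes the 95% confidence interval of the log2 fold change included 0. An unadjusted p under 0.05 with a lower level was found for 2 of the 10 genes (Nlrc5 and Tap1) and for 4.59% of all tested genes, and a log2 fold change under 0 for 49% of all tested genes and 48% of those with at least 50 CPM. The median of the 10 was -0.26 without tuft-like replicate 1 and -0.76 without tuft-like replicate 3, settings in which the median of all genes was -0.20 and 0.14. H2-D1 kept its sign, and the other 9 genes theirs, with RLE factors, with library size alone and under voom. In a bulk library a lower level can come from fewer cells that express a gene or from less RNA per cell, and these cannot be told apart.

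**Figure D1:**
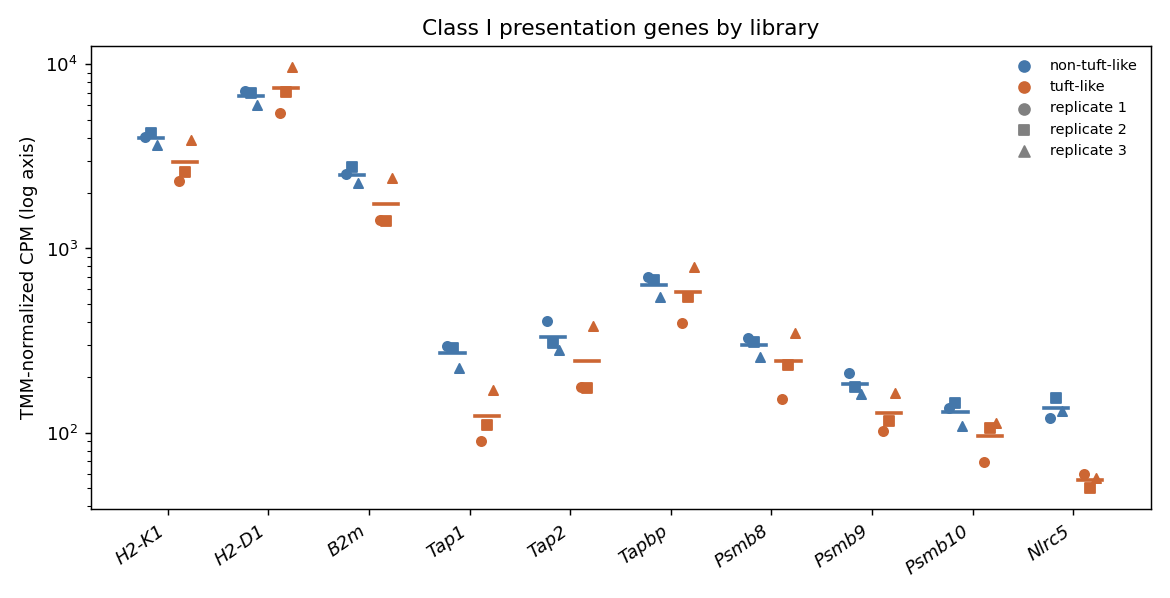
Level of each of the 10 genes in each library, in CPM after TMM scaling on a log axis, with non-tuft-like and tuft-like libraries in separate colours, replicates by marker shape and a bar at each population's mean. Tap1 and Nlrc5 are the genes whose libraries do not overlap between populations, and tuft-like replicate 3 is the highest tuft-like library for 9 of 10 genes.

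H2-K1 (ENSMUSG00000061232, chromosome 17, 33996017 to 34000347, minus strand of mm10) and H2-D1 (ENSMUSG00000073411, chromosome 17, 35262730 to 35267499, plus strand) encode the classical class I heavy chains of C57BL/6, the polymorphic chains whose groove holds the peptide. Taking replicates 1, 2 and 3 in order, as throughout, H2-K1 stood at 4019, 4211 and 3645 CPM in the non-tuft-like and at 2329, 2605 and 3895 CPM in the tuft-like libraries. Tuft-like replicates 1 and 2 lay below every non-tuft-like library, and tuft-like replicate 3 lay among them. The fitted log2 fold change was -0.43 (SE 0.41, 95% interval -1.34 to 0.48), and H2-K1 was not called by edgeR's quasi-likelihood test (FDR 1). H2-D1 had 7178, 6972 and 5995 CPM in the non-tuft-like and 5460, 7035 and 9656 CPM in the tuft-like libraries. The tuft-like libraries thus spanned the non-tuft-like ones on both sides. Its log2 fold change was 0.14 (SE 0.47, 95% interval -0.90 to 1.17), not called by edgeR's quasi-likelihood test (FDR 1), and it was -0.14 without tuft-like replicate 3.

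The balance between these chains was also measured within each library, as a share that does not depend on scaling between libraries. Among the summed counts of 18 class I heavy chain genes of the MHC (228524 to 706384 counts per library), H2-D1 took 48.0%, 46.4% and 45.8% in the non-tuft-like and 57.8%, 61.4% and 58.3% in the tuft-like libraries. Every tuft-like library was above every non-tuft-like library, by a mean of 12.4 percentage points (46.7% ± 1.11 against 59.2% ± 1.97, SD, n = 3 each; exact permutation p = 0.1, two-sided, the smallest that 3 libraries against 3 can give). H2-K1 took 26.9%, 28.002% and 27.9% in the non-tuft-like and 24.7%, 22.7% and 23.5% in the tuft-like libraries. It was lower in all 3 tuft-like libraries, by 3.94 percentage points on average (27.6% ± 0.627 to 23.6% ± 0.963, SD, n = 3 each; exact permutation p = 0.1, two-sided, again the smallest possible). The ratio of H2-K1 to H2-D1 counts, chosen after the values were seen and therefore given without a test, was 0.591 ± 0.0267 in non-tuft-like and 0.400 ± 0.0282 in tuft-like mTEC (SD, n = 3 each). Heavy chain genes are near copies of each other. Of all stretches of 50 bases in the transcripts of H2-K1, 9.63% also occurred in another gene, and the share was 12.8% for H2-D1, so the counting may have split or dropped some of their reads.

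**Figure D2:**
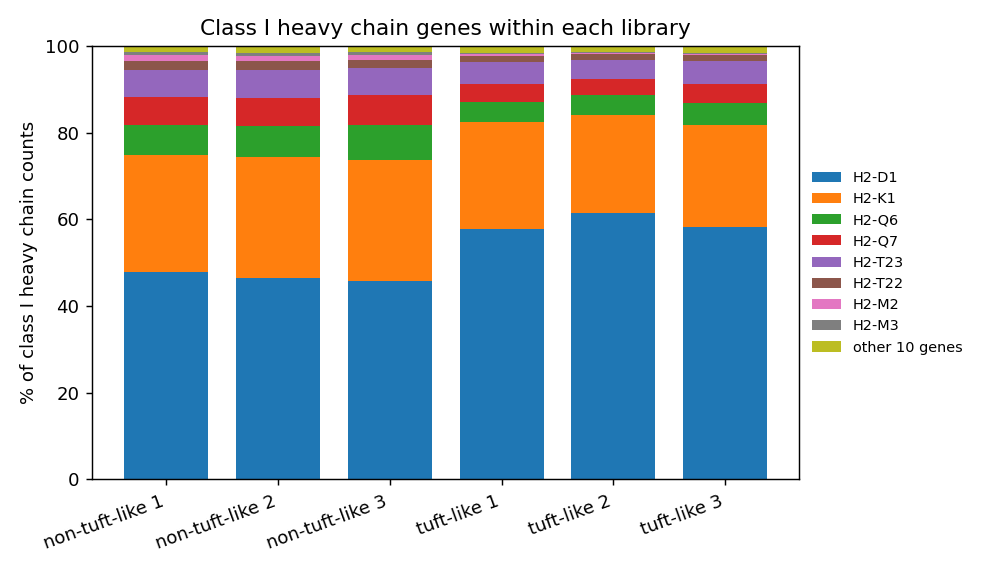
Share of the summed counts of class I heavy chain genes taken by single genes in each library, in percent, with 1 stacked bar per library and 1 colour per gene. H2-D1 takes 57.8% to 61.4% in the tuft-like and 45.8% to 48.0% in the non-tuft-like libraries, whereas H2-K1 and several non-classical genes take less in all 3 tuft-like libraries.

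B2m (ENSMUSG00000060802, chromosome 2, 122147686 to 122153083, plus strand) encodes the light chain that every classical heavy chain needs to reach the surface. It had 2525, 2759 and 2257 CPM in the non-tuft-like and 1433, 1403 and 2406 CPM in the tuft-like libraries. As for H2-K1, tuft-like replicates 1 and 2 were below all non-tuft-like libraries and tuft-like replicate 3 was not. With a log2 fold change of -0.52 (SE 0.39, 95% interval -1.39 to 0.34), B2m was not called by edgeR's quasi-likelihood test (FDR 1). No stretch of 50 bases of B2m occurred in another gene.

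Per exon length, B2m (8051 ± 642 TPM) and H2-D1 (7177 ± 603 TPM) stood highest in non-tuft-like mTEC and their libraries overlapped, followed by H2-K1 (3713 ± 202 TPM). In tuft-like mTEC the order was H2-D1 (7529 ± 688 TPM), B2m (5323 ± 619 TPM) and H2-K1 (2635 ± 162 TPM), each apart from the next (SD, n = 3 libraries throughout). H2-D1 was above its light chain in each tuft-like library and below it in each non-tuft-like library. Below these came Tapbp, with 484 ± 57.9 TPM in non-tuft-like and 414 ± 63.5 TPM in tuft-like mTEC. Psmb8, Tap2 and Psmb10 followed at 209.8 to 242.7 TPM in non-tuft-like and 150.8 to 187.2 TPM in tuft-like mTEC, and neighbours in this order overlapped in both populations. Psmb9 and Tap1 overlapped in non-tuft-like mTEC (138 ± 19.04 and 136 ± 17.9 TPM) but were apart in tuft-like mTEC (91.9 ± 2.99 and 59.0 ± 6.93 TPM). Nlrc5 was the lowest in both, at 44.1 ± 4.92 and 17.8 ± 4.18 TPM. By TPM, which carries no TMM scaling, tuft-like and non-tuft-like libraries did not overlap for 5 of the 10 genes (H2-K1, B2m, Tap1, Psmb9 and Nlrc5), all lower in tuft-like mTEC, where 9.43% of all genes, and 18.6% of those with at least 10 TPM in the higher population, did not overlap in that direction. By TMM-scaled CPM 2 genes did not overlap (Tap1 and Nlrc5), where the share was 8.85% of all tested genes and 17.3% of those with at least 50 CPM.

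Tap1 (ENSMUSG00000037321, chromosome 17, 34187553 to 34197225, plus strand) and Tap2 (ENSMUSG00000024339, chromosome 17, 34203527 to 34216321, plus strand) encode the subunits of the peptide transporter, which works only as the pair. Tap1 had 295.6, 289.9 and 225.7 CPM in the non-tuft-like and 90.2, 110.7 and 170.4 CPM in the tuft-like libraries. All 3 tuft-like libraries were below all 3 non-tuft-like libraries. Its fitted log2 fold change was -1.13 (SE 0.31, 95% interval -1.83 to -0.43), 2.18-fold lower in tuft-like mTEC, with an unadjusted p of 0.00477 that did not pass after Benjamini-Hochberg adjustment over all genes in edgeR's quasi-likelihood test (FDR 0.130). The gene was called in 7 of 15 alternative settings, over which its FDR ran from 0.00217 to 0.625, and among the omissions of a library only that of tuft-like replicate 3 gave a call (edgeR FDR 0.0250). Tap2 had 403.9, 306.1 and 280.7 CPM in the non-tuft-like and 176.2, 174.6 and 380.4 CPM in the tuft-like libraries. Here tuft-like replicate 3 exceeded 2 of the 3 non-tuft-like libraries, and the log2 fold change of -0.44 (SE 0.37, 95% interval -1.25 to 0.37) was not called by edgeR's quasi-likelihood test (FDR 1). The ratio of Tap1 to Tap2 counts, chosen after the values were seen and given without a test, was 0.828 ± 0.109 in non-tuft-like and 0.531 ± 0.0946 in tuft-like mTEC (SD, n = 3 each) and did not overlap.

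Tapbp (ENSMUSG00000024308, chromosome 17, 33915899 to 33929292, plus strand) encodes tapasin, which bridges the transporter and the empty class I molecule. It had 697.8, 671.1 and 543.2 CPM in the non-tuft-like and 392.2, 542.7 and 796.4 CPM in the tuft-like libraries. The tuft-like libraries held both the lowest and the highest of the 6 values. Tapbp had a log2 fold change of -0.14 (SE 0.34, 95% interval -0.91 to 0.62) and was not called by edgeR's quasi-likelihood test (FDR 1). Exons of Tapbp share 904 bp with genes on the other strand, those of Tap2 698 bp, of Psmb8 498 bp, and those of Tap1 and Psmb9 share 212 bp with each other. Which strand setting was used for counting is not given in the sources used here, so reads from either strand cannot be told apart in these stretches. Tapbp also shares 149 bp with Zbtb22 on its own strand, which no strand setting would resolve. Of the 50-base stretches of Tapbp, 23.2% occurred in another gene. The share was 11.9% for Psmb8, 11.6% for Tap2, 4.19% for Psmb9 and 3.33% for Tap1, and Psmb10 had none.

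Psmb8 (ENSMUSG00000024338, chromosome 17, 34197721 to 34201454, plus strand), Psmb9 (ENSMUSG00000096727, chromosome 17, 34181987 to 34187764, minus strand) and Psmb10 (ENSMUSG00000031897, chromosome 8, 105935735 to 105938444, minus strand) encode the inducible catalytic subunits, and the first pair lies beside Tap1 within the MHC, where 7 of the 10 genes are. Psmb8 had 325.8, 310.8 and 256.6 CPM in the non-tuft-like and 152.7, 233.0 and 347.7 CPM in the tuft-like libraries. The tuft-like values ran from below to above all non-tuft-like ones. Psmb9 had 211.2, 177.7 and 161.9 CPM against 102.7, 115.6 and 163.7 CPM, with tuft-like replicate 3 just above the lowest non-tuft-like library. Psmb10 had 136.2, 145.1 and 108.5 CPM against 69.8, 106.7 and 113.2 CPM, and again tuft-like replicate 3 alone reached the non-tuft-like range. The log2 fold changes were -0.28 (95% interval -1.03 to 0.47), -0.53 (-1.16 to 0.11) and -0.43 (-1.07 to 0.21), and none was called by edgeR's quasi-likelihood test (FDR 1, 0.769 and 0.993).

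To ask whether the immunoproteasome subunits differed beyond the proteasome as a whole, each was divided by the constitutive subunit it replaces, within each library. The ratio of Psmb8 to Psmb5 counts was 2.07 ± 0.101 in non-tuft-like and 1.84 ± 0.247 in tuft-like mTEC, that of Psmb9 to Psmb6 was 0.564 ± 0.0437 and 0.488 ± 0.0737, and that of Psmb10 to Psmb7 was 2.702 ± 0.326 and 2.47 ± 0.496 (SD, n = 3 each). All 3 ratios overlapped between the populations. The log2 differences were -0.18, -0.22 and -0.14, with two-sided exact permutation p of 0.2, 0.2 and 0.5 (0.3, 0.3 and 0.5 after Benjamini-Hochberg adjustment over the 3 ratios). With 3 libraries a group no ratio could have given a p below 0.1. By contrast the ratio of Tap1 to its divergently transcribed neighbour Psmb9, chosen after the values were seen and given without a test, was 1.48 ± 0.135 in non-tuft-like and 0.959 ± 0.0815 in tuft-like mTEC (SD, n = 3 each), without overlap.

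**Figure D3:**
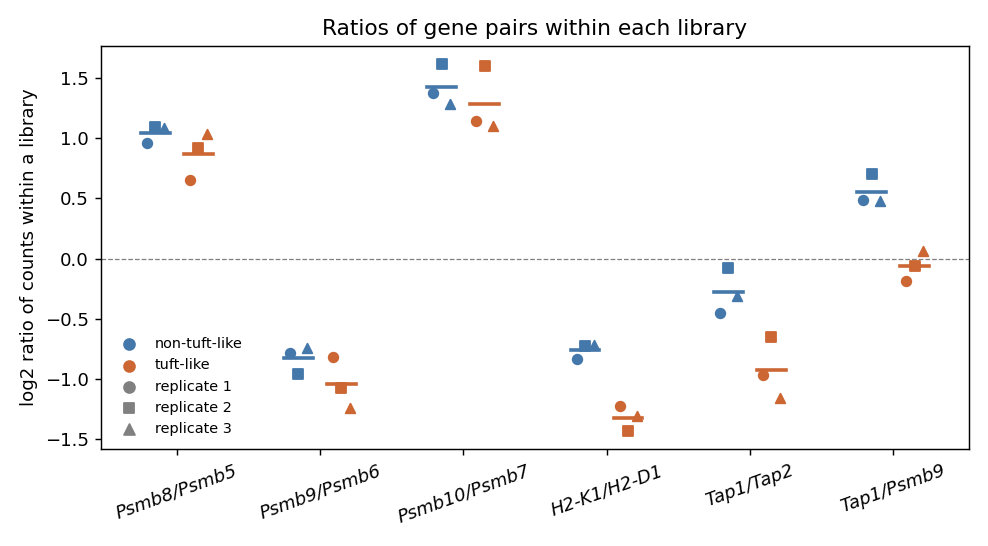
Log2 ratios of counts within each library, for the 3 immunoproteasome subunits over the constitutive subunits they replace and for 3 pairs chosen after the values were seen, with non-tuft-like and tuft-like libraries in separate colours, replicates by marker shape and a bar at each mean. The 3 immunoproteasome ratios overlap between the populations, whereas H2-K1/H2-D1, Tap1/Tap2 and Tap1/Psmb9 are lower in every tuft-like library.

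Nlrc5 (ENSMUSG00000074151, chromosome 8, 94434356 to 94527272, plus strand), the class I transactivator, fell in tuft-like mTEC. It had 120.6, 155.0 and 132.1 CPM in the non-tuft-like and 59.8, 49.96 and 56.5 CPM in the tuft-like libraries. The tuft-like libraries lay close together (55.4 ± 4.996 CPM against 135.9 ± 17.5 CPM, SD, n = 3 each), and tuft-like replicate 3, the highest for the other 9 genes, was not the highest here. The log2 fold change was -1.29 (SE 0.26, 95% interval -1.87 to -0.72), 2.45-fold lower, with an FDR of 0.0301 in edgeR's quasi-likelihood test. Without single libraries its log2 fold change stayed between -1.39 and -1.19, but it lost the call without any 1 non-tuft-like library (FDR 0.0733, 0.234 and 0.0696 without replicates 1, 2 and 3) or without tuft-like replicate 2 (FDR 0.233) in edgeR's quasi-likelihood test. Nlrc5 shared 0.338% of its 50-base stretches with other genes.

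**Figure D4:**
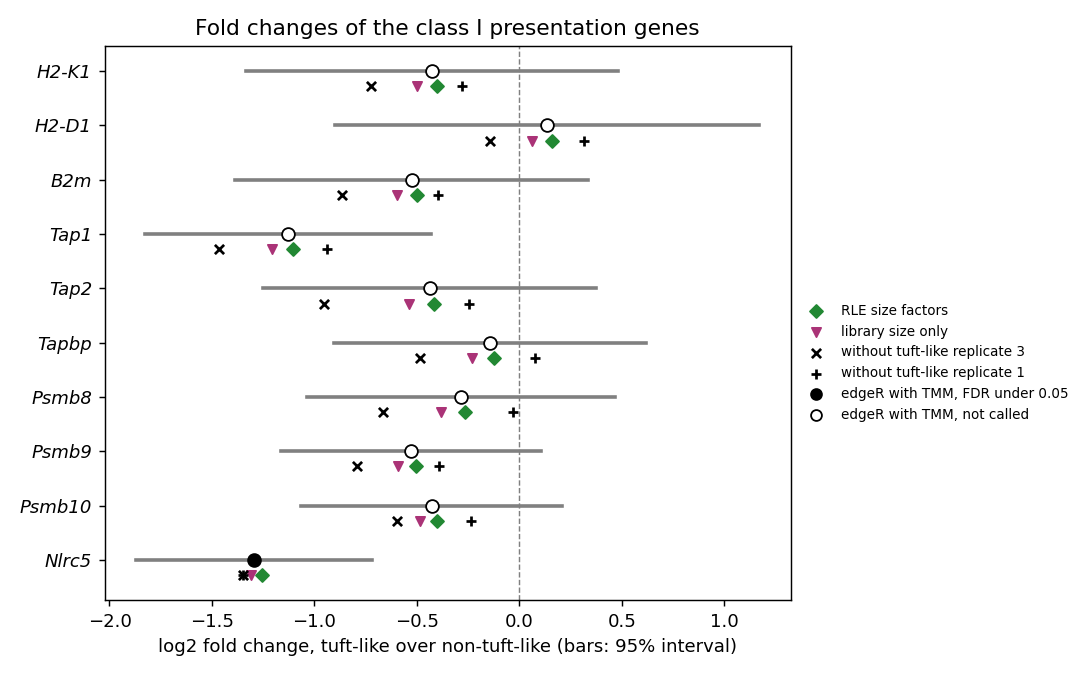
Log2 fold change of tuft-like over non-tuft-like mTEC for the 10 genes, with 95% confidence intervals from edgeR and smaller marks for other scalings (RLE, library size only) and for the fits without tuft-like replicate 1 or 3. Nlrc5 (-1.29) and Tap1 (-1.13) are the genes whose intervals lie below 0, and H2-D1 (0.14) is the one gene with a value above 0.

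Tuft-like replicate 3 was the highest tuft-like library for 9 of 10 genes, tuft-like replicate 1 the lowest for 7, and non-tuft-like replicate 3 the lowest non-tuft-like library for 9. The TMM factors, which scale all genes of a library alike, were 1.213, 1.002 and 0.789 for tuft-like replicates 1, 2 and 3. In TPM, which does not use them, tuft-like replicate 3 was still the highest tuft-like library for every gene but Psmb10 and Nlrc5. By TPM in tuft-like replicates 1, 2 and 3, H2-K1 had 2521, 2563 and 2821, and Tap2 had 148, 133 and 214. Tuft-like replicate 3 also had the lowest share of reads assigned to no gene and tuft-like replicate 1 the highest. With the log odds of that share as a covariate, edgeR's quasi-likelihood test called 3 of the 10 genes lower (Nlrc5, Tap1 and B2m). This setting moved the median log2 fold change of all genes to -0.41. Over the 6 libraries, which differ in depth and in that share, the correlation of each gene with the mean profile of all 10, itself included, ran from 0.598 for H2-D1 and 0.642 for Nlrc5 to 0.988 for H2-K1 (Pearson's r of log2 CPM).

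Beyond the classical pair, the class I family holds non-classical chains that are less polymorphic and present special ligands. Of 21 other class I chain genes tested, 17 had a log2 fold change under 0 (median -0.40), against 49% of all tested genes. H2-M2 was the 1 called lower by edgeR's quasi-likelihood test, where 0.951% of all tested genes, and 4.32% of those with at least 50 CPM, were called lower. Without tuft-like replicate 3, 4 were called and the median was -0.85, while 2 were called by DESeq2, 2 by the likelihood ratio test, 3 by voom (median -0.73), 5 with library size only and 6 with the share of reads assigned to no gene as a covariate, all lower. Over all genes the calls lower went from 309 to 612 without tuft-like replicate 3, 526 with library size only and 924 with the covariate. The median of all genes was 0.14, 0.03 and -0.41 in these settings and -0.17 under voom. H2-M2 had 217.5, 155.9 and 131.5 CPM in the non-tuft-like and 33.4, 21.4 and 28.8 CPM in the tuft-like libraries, far apart. H2-M2 is a non-classical chain of the M region. H2-M2 had a log2 fold change of -2.60 (SE 0.32, edgeR FDR 0.00195), 6.04-fold lower, and it was called in all 15 alternative settings. Of the 16 H2 genes among the 21, 14 had a log2 fold change under 0 (median -0.47), the exceptions being H2-M5 (1.30) and H2-M9 (0.91), both under 5 CPM on average in either population and not called, and the 12 with at least 10 CPM in the higher population all had a log2 fold change under 0 (median -0.64), although for the one nearest to 0 it was -0.0028. H2-Q6 and H2-Q7, from the Qa-2 group, stood at 1056 ± 34.4 and 938.9 ± 33.8 CPM in non-tuft-like and at 592.3 ± 204 and 517.8 ± 186 CPM in tuft-like mTEC, and neither was called by edgeR's quasi-likelihood test (FDR 0.456 and 0.421). Each was called in 4 of 15 alternative settings, among them without tuft-like replicate 3 (edgeR FDR 0.0409 and 0.0321). H2-T23, which encodes Qa-1, a chain that shows leader peptides of other class I chains, had 904.7 ± 79.8 and 619.4 ± 227 CPM (edgeR FDR 0.940). H2-M3, which presents formylated peptides, had 98.4 ± 27.5 and 41.4 ± 12.4 CPM (log2 fold change -1.25, edgeR FDR 0.105), all SD with n = 3, and was called in 5 of 15 alternative settings, among them without tuft-like replicate 3 (edgeR FDR 0.042). The last 4 genes were named after their values were seen, and 34.97% of the 50-base stretches of H2-Q6 and 26.5% of those of H2-Q7 occur in other genes. By share of heavy chain counts, H2-Q6 took 7.38% ± 0.550 in non-tuft-like and 4.70% ± 0.249 in tuft-like mTEC, H2-Q7 6.55% ± 0.337 and 4.11% ± 0.3598, and H2-T23 6.30% ± 0.163 and 4.91% ± 0.500 (SD, n = 3 each), none overlapping, so that among the chains with a share of over 1% in non-tuft-like mTEC only H2-D1 took a larger share in tuft-like mTEC.

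Chaperones and peptidases complete the loading of class I. Of 9 such genes, 0 were called by edgeR's quasi-likelihood test and 1 each by DESeq2, voom and the likelihood ratio test. An unadjusted p under 0.05 was found for 3, all lower in tuft-like mTEC, against 4.59% of all tested genes in that direction. A log2 fold change under 0 was found for 8 (median -0.41, but -0.81 without tuft-like replicate 3), against 49% of all tested genes. The largest differences were those of Blmh, a cytosolic peptidase (-1.26, from 200.8 ± 44.7 to 84.0 ± 27.4 CPM, edgeR FDR 0.106), and of Erap1, which trims peptides in the endoplasmic reticulum to the length class I holds (-0.83, from 86.6 ± 25.2 to 48.6 ± 4.34 CPM, edgeR FDR 0.313; SD, n = 3 each). For 3 of the 9 genes, Blmh and Erap1 among them, the libraries did not overlap and were lower in tuft-like mTEC. The same held for 8.85% of all tested genes and 17.3% of those with at least 50 CPM.

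The rest of the proteasome was examined beside the immunoproteasome subunits, and in the 4 lists that follow DESeq2, voom and the likelihood ratio test also called 0 genes. The 11 shared subunits of the 20S core all had a log2 fold change under 0, with a median of -0.26, and 0 were called by edgeR's quasi-likelihood test or had an unadjusted p under 0.05. The largest were Psma6 (-0.53, edgeR FDR 0.771) and Psma4 (-0.50, edgeR FDR 0.872), both of the outer rings of the core. Without tuft-like replicate 1, 7 of the 11 were under 0 (median -0.08), and without tuft-like replicate 3 all 11 were (median -0.60). Of 18 subunits of the 19S cap, 14 were under 0 (median -0.11, but 0.11 with 7 under 0 when tuft-like replicate 1 was left out, and -0.45 without tuft-like replicate 3), 0 were called by edgeR's quasi-likelihood test and 1 had an unadjusted p under 0.05, and the largest differences were those of the ATPases Psmc2 (-0.67, edgeR FDR 0.554) and Psmc3 (-0.45, edgeR FDR 0.983). Of 10 activators and assembly factors, 0 were called by edgeR's quasi-likelihood test and 1 had an unadjusted p under 0.05, the assembly chaperone Psmg4 (1.20, from 20.1 ± 4.25 to 46.1 ± 26.3 CPM, SD, n = 3, edgeR FDR 0.328), while Psmg3 stood at -0.68 (edgeR FDR 1). Among the 4 constitutive and thymus-specific catalytic subunits, 0 were called by edgeR's quasi-likelihood test and 1 had an unadjusted p under 0.05. That gene was Psmb11, the catalytic subunit of the thymoproteasome of cortical TEC, with 11.6, 68.9 and 43.0 CPM in the non-tuft-like and 8.80, 17.8 and 4.198 CPM in the tuft-like libraries, and the populations overlapped. Psmb11 had a difference of -2.004 on the log2 scale (edgeR FDR 0.272), -2.67 when tuft-like replicate 2 was left out and -1.41 when non-tuft-like replicate 2 was. Of the 15 alternative settings only the one without the filter on low counts called Psmb11 (edgeR FDR 0.0395). Psmb6 stood at -0.27 (edgeR FDR 1).

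**Figure D5:**
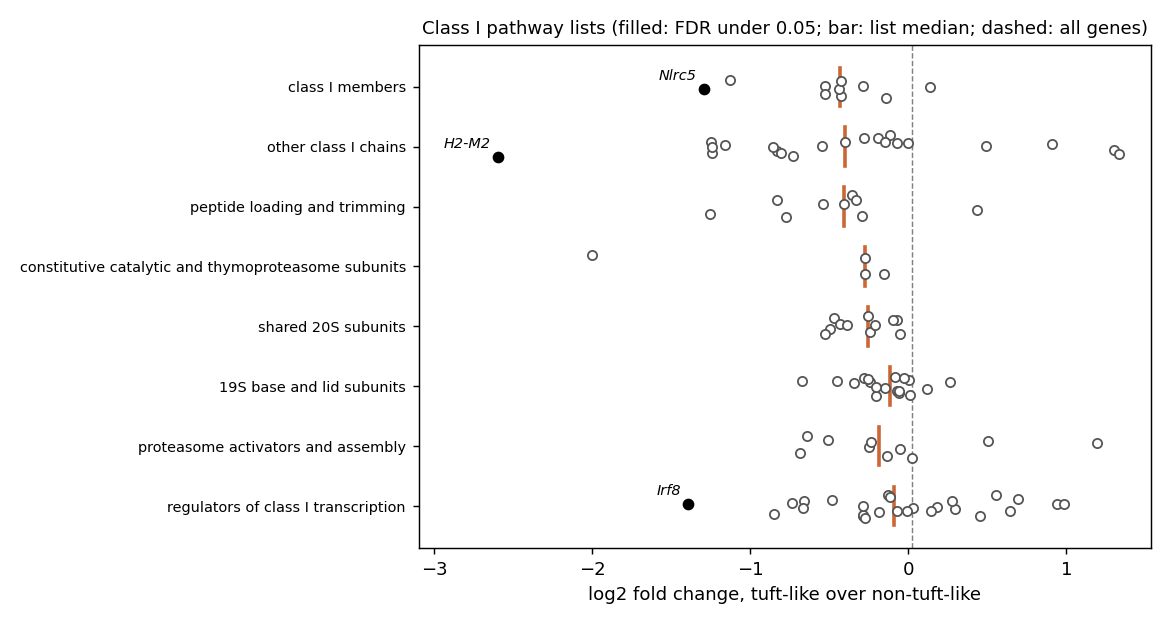
Log2 fold change of tuft-like over non-tuft-like mTEC for each tested gene of 8 class I lists, 1 point per gene, with a bar at the median of each list, called genes filled and a dashed line at the median of all genes. The called genes of these 8 lists are Nlrc5, H2-M2 and Irf8, all lower in tuft-like mTEC, and the medians of the 4 proteasome lists lie between -0.27 and -0.11. A further list, of ligands and checks read beside class I, is not plotted.

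The 26 regulators of class I transcription included the interferon receptors and their kinases, the IRF factors, the RFX and NF-Y factors that Nlrc5 acts with, and NF-kB subunits. Of these, 15 had a log2 fold change under 0 and 11 above 0 (median -0.09), against 49% of all tested genes under 0. An unadjusted p under 0.05 in edgeR's quasi-likelihood test was found for 3 that were lower and 1 that was higher. edgeR's quasi-likelihood test called 1 lower, where it called 0.951% of all tested genes, and 4.32% of those with at least 50 CPM, lower. The called gene was Irf8, an interferon regulatory factor best known in myeloid cells, with 137.2, 168.6 and 148.7 CPM in the non-tuft-like and 44.1, 55.6 and 73.2 CPM in the tuft-like libraries, which did not overlap. The log2 fold change of Irf8 was -1.39 (SE 0.28, edgeR FDR 0.0334), and it was called without tuft-like replicate 3 (edgeR FDR 0.0145) but not without any other single library (edgeR FDR 0.0637 to 0.207). Irf1, an interferon-induced factor that acts at class I promoters, was named after its value was seen and stood at a log2 fold change of -0.28 (95% interval -1.02 to 0.44), not called by edgeR's quasi-likelihood test (FDR 1). The receptor chains Ifngr1 (-0.85, edgeR FDR 0.274) and Ifngr2 (-0.66, edgeR FDR 0.554), likewise named after their values were seen, were lower in all 3 tuft-like libraries, without overlap. Libraries did not overlap in that direction for 3 of the 26 regulators, 8.85% of all tested genes and 17.3% of those with at least 50 CPM. Tyk2, a kinase of interferon receptors also named after its value was seen, went the other way (0.94, edgeR FDR 0.205). Of the 15 alternative settings only DESeq2 called Tyk2 (FDR 0.0332). Ciita, the class II counterpart of Nlrc5 and one of the mature mTEC markers, fell by 2.97 on the log2 scale (edgeR FDR 0.00114), from 174.5 ± 22.4 to 22.3 ± 7.37 CPM (SD, n = 3), and both populations had been gated on low surface class II.

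Markers of other cells that carry class I were read beside these values. Of 16 leukocyte markers 0 were called by edgeR's quasi-likelihood test, DESeq2, voom or the likelihood ratio test, 0 had an unadjusted p under 0.05 in the first of these, and their summed level was 211.3 to 350.2 CPM in the non-tuft-like and 176.3 to 248.4 CPM in the tuft-like libraries. Of the 16, 12 had a log2 fold change under 0, with a median of -0.49. That median was -1.02 under voom and -0.12 without tuft-like replicate 3. The sums of 6 endothelial markers were 46.0 to 69.4 and 225.3 to 390.0 CPM (1 called higher by edgeR's quasi-likelihood test, Tek, and 2 by each other tool) and those of 7 fibroblast markers 48.4 to 76.8 and 38.8 to 197.5 CPM (0 called by any of the 4 tools, 0 with an unadjusted p under 0.05). Without tuft-like replicate 1 the median log2 fold change of the endothelial markers went from 1.78 to -0.13, with 3 of 6 under 0. That of the fibroblast markers went from 1.17 to -0.03, with 4 of 7 under 0. Under voom, 2 endothelial and 4 fibroblast markers were under 0. The sums of 6 erythroid markers were 236.2 to 382.5 and 88.0 to 164.0 CPM. Of these 6, 0 were called by the quasi-likelihood test, where 4 had an unadjusted p under 0.05, but 4 by DESeq2, 2 by the likelihood ratio test and 1 by voom, all lower. Those of 6 cortical TEC markers were 552.6 to 1035 and 172.6 to 262.4 CPM, and 2 were called lower by the quasi-likelihood test, 4 by DESeq2, 3 by the likelihood ratio test and 2 by voom. By the quasi-likelihood test 0 of the cortical markers were called without tuft-like replicate 2, 1 without tuft-like replicate 1, non-tuft-like replicate 2 or non-tuft-like replicate 3. It called 3 of them when non-tuft-like replicate 1 was left out. Of 6 general TEC markers 2 were called lower, and 3 by each other tool. Over all 32496 tested genes the quasi-likelihood test called 309 lower and 378 higher, the likelihood ratio test 601 and 635, and voom 445 and 460. DESeq2 called 978 lower and 1066 higher of 19899 genes, so the counts of the 4 tools cannot be compared directly. No marker was at 0 in all libraries, and the part of these cells in the class I levels was not tested.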

How the data were processed

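RNA of 6 sorted samples was prepared with an ultra-low input kit (SMARTer), and per the labels and the study's methods reads were trimmed with Trimmomatic 0.36, aligned to mm10 with STAR 2.7.3a and assigned to genes with HTSeq in its intersection-nonempty mode. The authors deposited raw counts per gene, not normalized. The strand setting and annotation release are not given in the sources used here. The 5 HTSeq summary entries, and 92 ERCC controls that were all at 0 counts, stayed out of library sizes. The reads assigned to no gene, ambiguous reads (0.715% to 2.32%) and reads not aligned uniquely (4.01% to 5.05%) are shares of all reads in the table. GENCODE release M21 of mm10 named 99.7% of genes, and the unnamed ones held 0.0164% of the counts.

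Groups came from the sample labels. With R 4.3.3 and edgeR 4.0.16, the filter was filterByExpr (min.count 10, min.total.count 15), and the kept genes were scaled by TMM and tested with the quasi-likelihood F test over all 6 libraries without covariates, with Benjamini-Hochberg adjustment over all 32496 genes and a threshold of 0.05. Standard errors were taken as the size of the log2 fold change over the square root of F. TPM was computed from counts and exon length in M21. Shares and ratios were compared by exact permutation tests (scipy 1.17.1). The scripts were tested on simulated data. A count of 0 allows up to 3 counts, 0.0620 to 0.149 CPM, a limit for counting error alone, because the reads carry no molecular identifiers.

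The 10 genes and the other lists were chosen with earlier results of these data known. The text names the 10 genes, the called genes of each pathway list (at most 5), and, where none was called, the 2 with the largest difference and at least 10 CPM, and the 5 genes outside all lists most like the mean profile of the 10. Genes outside this rule are stated as such, except Ciita and Tek, which were also named after their values were seen. Alternatives were other scalings (RLE, library size only), tests (DESeq2 1.42.0, voom of limma 3.58.1, the likelihood ratio test), filters, a covariate, the replicate number as a block, and each library left out in turn. The covariate entered the fit as the log odds (logit) of the share of reads assigned to no gene.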

Additional observations from a re-analysis of the deposited data

How the results depend on the processing

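With 3 libraries per population, the 95% intervals of 8 of the 10 genes included 0. Against 1 of 10 genes called by edgeR's quasi-likelihood test, 2 were called with library size only, DESeq2, voom, the likelihood ratio test and a filter of at least 50 counts in 3 libraries, and 3 with the share of reads assigned to no gene as a covariate, and leaving out single libraries gave 0 to 2. Over all genes, 687 calls became 1045 with library size only, 2044 with DESeq2, 1236 with the likelihood ratio test, 1127 without the filter, 1654 with the covariate, and 376 to 922 without single libraries. DESeq2 tested 19899 genes after its own filter, and the filter of at least 50 counts in 3 libraries left 20904 genes and gave 928 calls. The causes of these differences were not tested. Leaving out single libraries moved the log2 fold change of H2-D1 between -0.14 and 0.32 and that of Tapbp between -0.49 and 0.075, each with a change of sign. The regulator list's median was 0.02 and 0.07 without non-tuft-like replicates 1 and 2. The median of all genes shifted to -0.17 under voom and -0.41 with the covariate. No ratio or share of heavy chain counts changed direction without single libraries.

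The labels do not say whether equal replicate numbers mark samples of the same animals or sort. Deviations from the group means over all tested genes correlated at -0.0965, -0.0375 and -0.274 for numbers 1, 2 and 3. Such correlations cannot show whether the samples were paired, because the libraries also differ in depth and in the share of reads assigned to no gene. With the number as a replicate block, 0 of the 10 genes were called by edgeR's quasi-likelihood test (Nlrc5 FDR 0.0868), Irf8 (FDR 0.0547) and Cd47 (FDR 0.170) also lost their calls, the mature mTEC markers called lower went from 7 to 4, and the count over all genes went to 737.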

Other observations

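Of 5 genes for other ligands and checks that cytotoxic and natural killer cells or phagocytes read beside class I, 4 were tested. The quasi-likelihood test of edgeR called 1 of these higher, where it called 1.16% of all tested genes higher. That gene was Cd47, which encodes the signal that restrains phagocytosis. It had 259.0, 298.8 and 211.5 CPM in non-tuft-like and 567.1, 869.2 and 1051 CPM in tuft-like replicates 1, 2 and 3. Cd47 rose by a log2 fold change of 1.69 (SE 0.34, edgeR quasi-likelihood FDR 0.0308), and 10 of 15 alternative settings called it, with an FDR of 1e-06 to 0.180. It lost the call in edgeR's quasi-likelihood test without any 1 non-tuft-like library or without tuft-like replicate 2 (FDR 0.120 to 0.180). Cd274, which encodes the checkpoint ligand PD-L1 and was named after its value was seen, had 217.2 ± 46.2 and 182.7 ± 16.3 CPM (SD, n = 3 each; log2 fold change -0.25, 95% interval -0.86 to 0.36, edgeR FDR 1).

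The genes outside all lists whose levels over the 6 libraries were most like the mean profile of the 10 class I genes, among 4809 genes averaging 50 CPM or more, were Cyba, Gsdmd, Hmgn2, Eif4g2 and Faah, with Pearson's r of 0.994 to 0.998. Cyba, a subunit of the phagocyte NADPH oxidase, had 272.7, 259.6 and 193.8 CPM in the non-tuft-like and 85.9, 113.5 and 239.7 CPM in the tuft-like libraries. These correlations describe 6 libraries that also differ in depth and in the share of reads assigned to no gene.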
